A study of Mus musculus with 14 samples.

Results

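B16-F10 mouse melanoma cells exposed to benzyl alcohol were compared with untreated cells of the same line. Every array labelled with benzyl alcohol treatment (3) or with no treatment (5) was taken, which makes 8 of the 14 arrays of the series. The treated cells had received 40 mM benzyl alcohol for 1 h at 37°C. They then recovered for 3 h in fresh medium according to the sample descriptions, whereas the description of the series places RNA extraction 30 min after treatment, and the files do not settle which holds. The control cells were untreated, so effects of the alcohol and of the medium change cannot be told apart. All cells were of the line B16-F10, derived from C57BL/6J mice and grown in RPMI medium with serum. RNA was measured on Affymetrix arrays, where a probeset is a group of short probes against a transcript, and RMA, a method that removes background and equalizes the arrays, summarized each probeset as a log2 signal, so that a difference of 1 is a 2-fold change. The other 6 arrays serve as a contrast, and they also enter the estimate of spread that the main tests share. Of these 6 arrays, 3 were of cells kept for 1 h at 42.5°C, a heat shock. The other 3 were of cells under the transfection lipid Lipofectamine for 3 h without plasmid. Each of these treatments was followed by a recovery of 30 min. The paper states that the Lipofectamine cells were treated in Opti-MEM medium and returned to RPMI with serum for the recovery. Effects of the lipid and of this medium change therefore cannot be told apart.

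Benzyl alcohol is a small aromatic alcohol that enters lipid bilayers and makes them more fluid, and it has long been used as a membrane fluidizer that can switch on heat shock genes without heat. Heat shock genes are driven by the transcription factor HSF1, which forms trimers when proteins are damaged and binds heat shock elements, runs of the unit GAA and its complement TTC in alternation. Its targets encode chaperones and their partners: small heat shock proteins that hold unfolded proteins, HSP70 and HSP90 that refold them, DNAJ proteins that deliver substrates, and exchange factors that reset the cycle.

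Heat shock elements were searched in RefSeq promoters (250 bases before to 50 after the start, build GRCm38.p6), both strands, as 3 alternating units (GAA, TTC, GAA or TTC, GAA, TTC) with any 2 bases between neighbouring units. They are shown here because their genes carry the results that follow. Of the 21 measured genes in a list of HSF1 targets 18 had a promoter in the table, and 4 of these held an element of 3 units, against 0.603% of all 32851 promoters. Of the genes that rose, Hsph1 and Chordc1 held it, and the bidirectional promoter of the chaperonin genes Hspe1 and Hspd1 held it as well. A shorter element of 2 units (GAA and TTC in either order, with any 2 bases between), searched after the first result was seen and contained in every longer one, was present in 13 of the 18, against 15.1% of all promoters. It was found in 7 of the 10 genes with a promoter that rose and in 6 of the 8 that did not pass the test. Promoters of Dnajb1, Hspa4l, Ahsa1, Stip1 and Serpinh1 held neither within this window, and the CArG box, the site of the factor SRF, was in 0 of the 18 and in 1.63% of all promoters. A gene was counted when any of its promoters held the site, whereas the shares of all promoters count single promoters. Counts and shares therefore differ in unit. Stretches of 30 bases on the gene's strand follow, with the element in capitals.
Hspb1 (chr5:135887791-135887820, plus strand): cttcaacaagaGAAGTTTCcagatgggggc
Hspb1 (chr5:135887811-135887840, plus strand): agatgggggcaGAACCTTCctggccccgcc
Hspa1b (chr17:34959324-34959353, minus strand): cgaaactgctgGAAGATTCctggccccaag
Hspa1a (chr17:34972242-34972271, minus strand): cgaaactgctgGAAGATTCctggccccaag
Dnaja4 (chr9:54699458-54699487, plus strand): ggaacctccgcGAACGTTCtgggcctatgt
Hsph1 (chr5:149636287-149636316, minus strand): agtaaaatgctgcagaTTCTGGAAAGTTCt
Chordc1 (chr9:18292260-18292289, plus strand): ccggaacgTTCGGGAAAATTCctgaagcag
Hspe1 (chr1:55088051-55088080, plus strand): acggtccgTTCTAGAACCTTCcggaaggcc
The stretches of Hspa1a and Hspa1b, neighbouring genes for the inducible HSP70, are the same letter for letter. In Hspb1 both elements lie upstream of the start, at -117 and -97.

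The heat shock genes Hspb1 and Hspa1b made the largest rises after benzyl alcohol. The small heat shock protein gene Hspb1 went from log2 signals between 7.68 and 8.49 in the 5 control arrays to 12.82, 12.25 and 12.79 in benzyl alcohol arrays 1 to 3. At this probeset, the brightest of the gene, the change was 4.56 ± 0.17 (SE, limma adjusted p = 5.48e-10), or 23.6-fold, and no treated array came near the control range. A second, dimmer probeset of Hspb1 rose by 5.74. Against control arrays 2, 4 and 5, which stand apart from the other controls as described below, the changes were 4.76 and 5.93. In all, 314 of 22626 probesets, or 1.39%, passed a limma adjusted p of 0.05 against the 5 control arrays, 156 of them higher and 158 lower. Of those, 43 were at least 2-fold higher and 12 at least 2-fold lower, and for 1709 probesets (7.55%) all 3 treated arrays lay outside the range of the 5 control arrays.

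The spread of the arrays differed between the groups. Correlations among the 3 benzyl alcohol arrays ran from 0.990 to 0.992, and pairs of them differed at least 2-fold in 60 to 126 probesets. Array 2 was the mildest in the heat shock response: it was the lowest of the 3 in 12 of the 12 HSF1 target genes that rose and in 98 of the 156 probesets that rose. The median rise of these 12 genes over the control mean was 1.32 in array 1, 0.90 in array 2 and 1.51 in array 3. The control arrays fell into 2 sets. Arrays 2, 4 and 5 correlated at 0.993 to 0.996 with each other and at 0.985 to 0.992 with the benzyl alcohol arrays, whereas control arrays 1 and 3 correlated with the latter at 0.977 to 0.982. Control arrays 1 and 3 lay wholly above or below control arrays 2, 4 and 5 in 38.7% of probesets, and the labels give no reason for the split. The changes of most genes named are therefore also given against control arrays 2, 4 and 5, from a fit without the other control arrays. Against these, 686 probesets passed, 277 higher and 409 lower, and 275 of the 314 passed in the same direction. The p-values measure the spread between samples labelled as biological replicates, with no statement on separate cultures. That spread was estimated from all 4 groups, heat shock and Lipofectamine included. With only the benzyl alcohol and control arrays fitted, 81 probesets passed instead of 314.

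The labelled cell type was checked with pigment cell genes. Pmel, a structural protein of melanosomes, read 13.08 to 13.33 in the control arrays and 13.08 to 13.20 after benzyl alcohol, and 20 of the 22 listed genes had a probeset. Their mean log2 signal ran from 9.78 to 10.25 in control and from 9.92 to 10.11 in treated arrays, with 0 of the 20 called in either direction. Against control arrays 2, 4 and 5, 2 of the 20 were lower, where 1.29% of all genes rose and 1.36% fell. These 2 were Mc1r, the receptor for melanocortin, by -0.87 (adjusted p = 0.0015) and Tyr, tyrosinase, by -0.48 (adjusted p = 0.0195). In RNA of whole cultures, fewer cells of a type and less RNA per cell cannot be told apart. The 8 epithelial markers had mean log2 signals of 5.70 to 6.00 after benzyl alcohol and 5.70 to 5.90 in the controls, the 8 fibroblast markers 5.69 to 5.91 and 5.72 to 5.92, and 0 of either list were called.

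Of the 21 HSF1 targets measured, 12 rose, 0 fell and 9 did not pass, with a median change of 0.81 against 0.02 over all genes. Over all 12393 genes, each read at its brightest probeset, 0.726% rose and 0.694% fell. Against control arrays 2, 4 and 5 the list had 13 rises and 0 falls (median 0.75), where 1.29% of all genes rose and 1.36% fell. The list was written with earlier results of these data known, and its direction is no independent evidence. Its count stayed at 9 or more with any single array left out, the lowest being without benzyl alcohol array 1 or array 3.

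Hspa1b, the inducible HSP70, was the next largest. Its most changed probeset read 4.30 to 5.44 in the control arrays and 10.06, 8.33 and 11.20 in the treated ones, so that the weakest treated array was still well above every control. The change was 4.82 ± 0.42 (adjusted p = 1.73e-05) and 4.63 against control arrays 2, 4 and 5. The other 2 probesets of Hspa1b rose by 4.38 and 4.0. Hspa1a, whose product is nearly the same protein, behaved otherwise at its single probeset, with 4.13 to 4.44 in the controls and 4.86, 4.72 and 9.0 in the treated arrays. Only array 3 stood far above the controls, and the difference of 1.88 ± 0.65 did not pass (adjusted p = 0.19). Transcripts of the 2 genes are nearly identical, so a probeset named for one of them may have measured both.

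The partners of HSP70 rose as well. Dnajb1, a DNAJ protein that hands substrates to HSP70, read 8.73 to 9.50 in control arrays and 11.20, 10.61 and 12.02 after benzyl alcohol, a change of 2.15 ± 0.24 (adjusted p = 2.03e-04), and 1.94 against control arrays 2, 4 and 5. Its second probeset showed 10.11, 8.76 and 12.19 against 8.39 to 9.24, overlapped the controls in array 2 and did not pass (adjusted p = 0.16). Bag3, an exchange factor that links HSP70 to autophagy, read 8.23 to 8.98 in the controls and 10.61, 9.66 and 11.72 in the treated arrays (1.97 ± 0.32, adjusted p = 0.0053, and 2.16 against control arrays 2, 4 and 5). Hsph1, an exchange factor of the HSP110 type, moved from 10.43 to 10.72 up to 12.22, 11.85 and 12.24, with a change of 1.55 ± 0.11 (adjusted p = 2.26e-06), and 1.62 against control arrays 2, 4 and 5. Groups did not overlap for Bag3 and Hsph1. Dnaja4 rose by 1.37, Hspa4l, another HSP110 relative, by 0.89, and Dnaja1 by 0.81, and against control arrays 2, 4 and 5 by 1.40, 0.94 and 0.75.

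The remaining rises of the list were smaller. Cryab, a small heat shock protein first known from the lens, rose by 1.17 ± 0.15 (adjusted p = 8.09e-04), and by 1.12 against control arrays 2, 4 and 5. In the HSP90 branch, Hsp90aa1, the inducible HSP90 itself, rose by 0.58, Ahsa1, which stimulates its ATPase, by 0.60, and Chordc1, an HSP90 partner, by 0.64, where control arrays 2, 4 and 5 alone gave 0.52, 0.48 and 0.75. The mitochondrial chaperonin genes Hspd1 and Hspe1 changed by 0.24 and 0.37 at their brightest probesets without passing, while a second probeset of Hspe1 rose by 0.72 (adjusted p = 0.0012). Hspa8, the constitutive HSP70, had 1 of its 4 probesets called, with a rise of 0.54 whose call ended without benzyl alcohol array 1 (adjusted p = 0.11) or array 3 (adjusted p = 0.17). Among the other 32 measured chaperones outside the list, CCT subunits and general cofactors, 0 passed in either direction, and their median was -0.002. Hspa4, an HSP110 relative in that group, differed by 0.13, -0.08 and 0.04 at its 3 probesets.

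**Figure D1:**
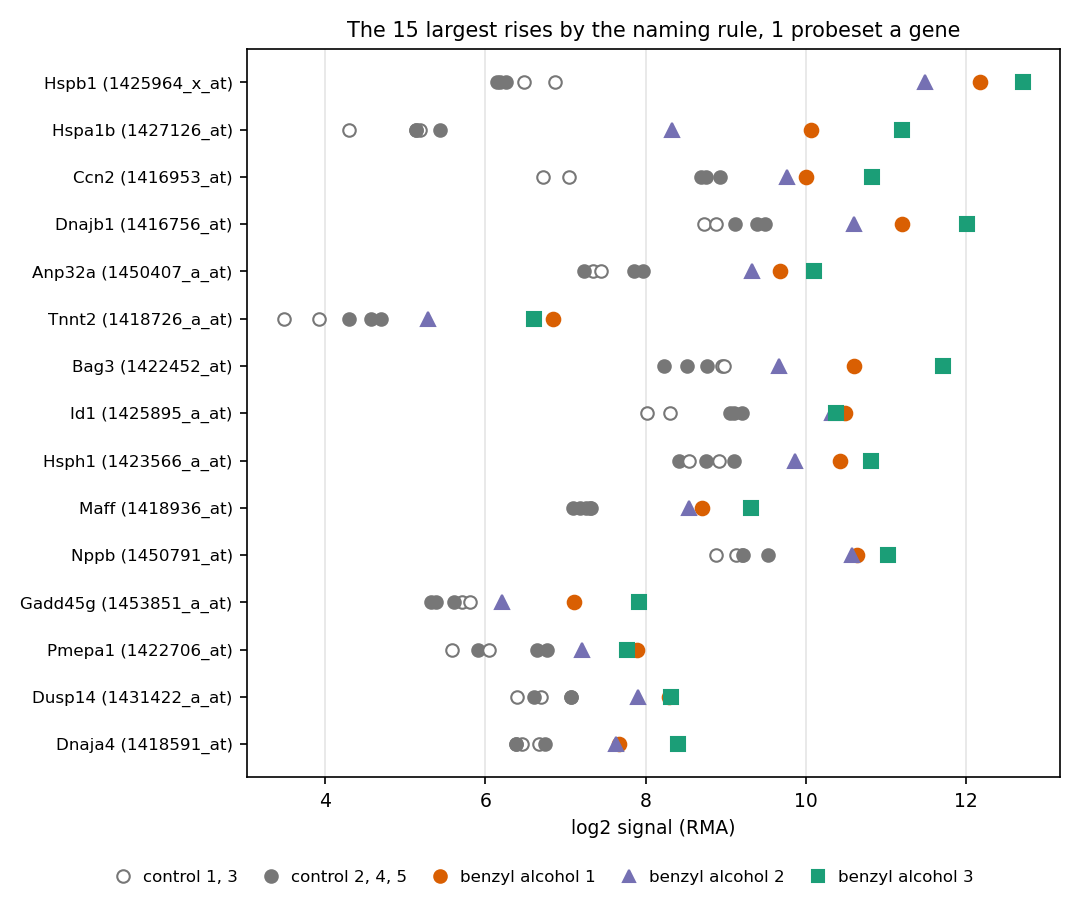
Log2 RMA signals (x axis) of the 15 genes with the largest rises among those that passed against both sets of controls and overlapped no control array, each at its most changed probeset (y axis), 1 point per array: open circles are control arrays 1 and 3, filled grey circles control arrays 2, 4 and 5, and the coloured signs the 3 benzyl alcohol arrays. For each gene all 3 treated arrays lie right of all control arrays, and in Hspa1b they spread from 8.33 to 11.20.

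The HSF1 targets were then set beside the other treatments, which share the control arrays. Heat shock arrays correlated at 0.986 to 0.989 with control arrays 1 and 3 and at 0.975 to 0.981 with control arrays 2, 4 and 5. For Lipofectamine arrays the ranges were 0.981 to 0.992 and 0.977 to 0.983. The benzyl alcohol arrays instead lay nearer to control arrays 2, 4 and 5. Exposure or recovery times also differ between treatments, and the Lipofectamine cells had been moved to Opti-MEM and back to RPMI with serum. These contrasts are therefore of the arrays as labelled. They cannot be told apart from time, from the split seen among the controls or, for Lipofectamine, from the medium change. Over all probesets, 1230 were higher and 403 lower after benzyl alcohol than after heat shock, and 1519 higher and 1180 lower than after Lipofectamine. Against heat-shocked cells, 5 of the 21 HSF1 targets were lower after benzyl alcohol and 0 higher, where 2.04% of all genes were lower and 5.35% higher. These 5 were Hspb1 (-0.81, adjusted p = 0.0227), Hspa1b (-1.17, adjusted p = 0.047), Dnajb1 (-1.27, adjusted p = 0.0135), Dnaja4 (-0.91, adjusted p = 0.0361) and Dnajb4 (-2.07, adjusted p = 0.0097). Hsph1 and Cryab differed from heat shock by -0.16 ± 0.12 and -0.14 ± 0.17, which did not pass. Against Lipofectamine, 11 of the 21 were higher after benzyl alcohol and 0 lower, where 7.12% of all genes were higher and 4.82% lower. Hspb1 was 4.03 above its level in Lipofectamine arrays.

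Some heat shock probesets stayed near control after benzyl alcohol while they were high after heat. Dnajb4, a DNAJ protein, read 8.42, 7.38 and 9.62 after benzyl alcohol, on both sides of the control range of 7.98 to 8.97, whereas the heat shock arrays read 10.34, 10.51 and 10.77. Its difference was 0.42 against control arrays 2, 4 and 5 and -0.41 against control arrays 1 and 3. The second probeset of Dnajb4 differed by 0.44 from all controls and by 0.71 from control arrays 2, 4 and 5. None of these differences passed. The dimmest probeset of Hspa8 gave 6.61, 6.14 and 7.88 after benzyl alcohol and 6.28 to 7.39 in the controls, against 10.88, 11.22 and 10.27 in the heat shock arrays. The difference between benzyl alcohol and heat shock was -3.91 ± 0.38 there (adjusted p = 6.02e-05), while the brightest probeset of Hspa8 differed by -0.07. For Hspa1a the heat shock arrays read 7.78, 7.19 and 7.65, a level that benzyl alcohol array 3 exceeded and arrays 1 and 2 did not reach.

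**Figure D2:**
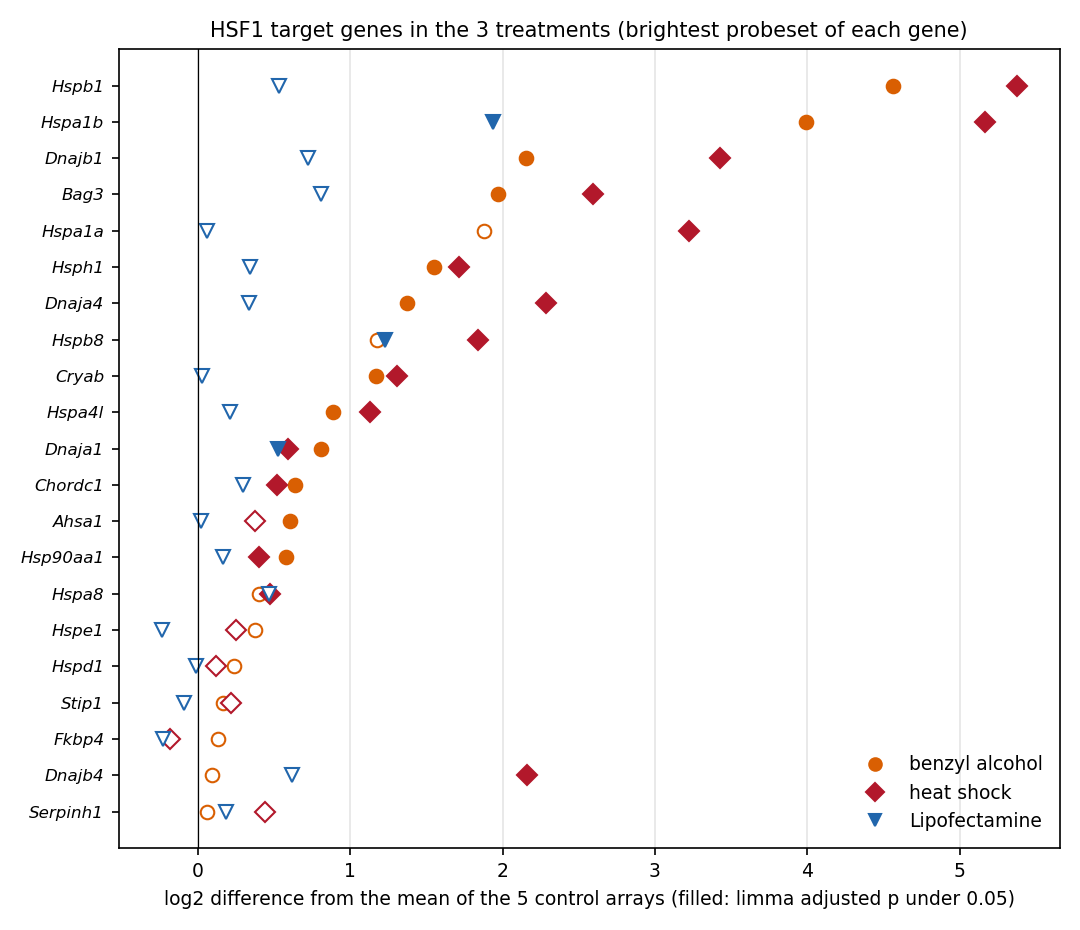
Log2 difference from the mean of the 5 control arrays (x axis) for the 21 measured HSF1 targets (y axis) after benzyl alcohol (circles), heat shock (diamonds) and Lipofectamine (triangles), filled where the limma adjusted p was under 0.05. Benzyl alcohol lies below heat shock for Hspb1 (4.56 and 5.38), Hspa1b (4.0 and 5.17) and Dnajb1 (2.15 and 3.43), and Dnajb4 is near 0 (0.09) where heat shock is at 2.16.

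Immediate early genes, the first genes that growth factors and stress switch on, were the other list with several rises. Of 51 measured, 10 rose, 0 fell and 41 did not pass, with a median of 0.31, where 0.726% of all genes rose and 0.694% fell. Against control arrays 2, 4 and 5 there were 15 rises and 0 falls (median 0.50), where 1.29% of all genes rose and 1.36% fell. Control arrays 1 and 3 alone gave 14 rises and 9 falls (median 0.12), where 636 of all 12393 genes rose and 1030 fell. The direction of part of this list therefore depended on the control arrays used. The count dropped to 5 without benzyl alcohol array 1 and to 5 without array 3, and it was 4 when only the 8 arrays of benzyl alcohol and control were fitted.

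Maff, a small MAF transcription factor, differed little between the 2 sets of control arrays, with 7.09 to 7.32 in control arrays and 8.70, 8.54 and 9.32 after benzyl alcohol. Its change was 1.62 ± 0.15 (adjusted p = 2.48e-05) and 1.65 against control arrays 2, 4 and 5. Id1, an inhibitor of helix-loop-helix transcription factors, read 10.49, 10.32 and 10.37, tightly together and above control arrays 1 and 3 (8.02 and 8.30) and control arrays 2, 4 and 5 (9.10, 9.05 and 9.20). The change of Id1 was 1.66 against all controls and 1.28 against the latter 3. The heat shock arrays read 7.56, 7.60 and 7.99 for Id1, nearer to control arrays 1 and 3 than to control arrays 2, 4 and 5. Id1 was 2.68 ± 0.25 higher after benzyl alcohol than after heat (adjusted p = 4.85e-05). Control arrays 1 and 3 differed from control arrays 2, 4 and 5 by -0.96, and in that contrast such a split cannot be told apart from the treatments. Id2 and Id3, relatives of Id1, were named after their values were seen. They differed from the controls by 0.94 and 0.98 without passing, and their array 3 fell within the control range.

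Ccn2, a secreted matrix protein also called connective tissue growth factor, read 10.00, 9.76 and 10.83 after benzyl alcohol. Control arrays 1 and 3 read 6.72 and 7.05 and control arrays 2, 4 and 5 read 8.76, 8.93 and 8.69, so the change of 2.17 ± 0.45 (adjusted p = 0.0217) shrank to 1.40 (adjusted p = 0.0039) against the latter. Without benzyl alcohol array 3 its adjusted p was 0.15, and without array 1 it was 0.061. Gadd45g and Gadd45b, stress sensors of the growth arrest family, rose by 1.51 and 0.98 (1.64 and 0.93 against control arrays 2, 4 and 5), and Gadd45g spread widely, with 7.11, 6.21 and 7.92 against 5.32 to 5.80. Klf10, a transcription factor known from transforming growth factor signalling, rose by 0.86 (0.84 against control arrays 2, 4 and 5) and was 1.96 higher than after heat shock and 2.0 higher than after Lipofectamine. Part of both gaps lay in the other treatments. Against the 5 controls Klf10 changed by -1.09 after heat shock (adjusted p = 0.0013) and by -1.14 after Lipofectamine (adjusted p = 9.78e-04). Spry2, which dampens receptor tyrosine kinase signalling, rose by 0.82 (0.83 against control arrays 2, 4 and 5). The call of Klf10 ended without benzyl alcohol array 1 (adjusted p = 0.0509) or array 3 (adjusted p = 0.0711).

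The classical members Fos and Jun did not pass. Both were chosen after their values were seen, and both show how far the treated arrays could differ. Fos, a subunit of the AP-1 factor, read 8.35, 7.37 and 9.28 against 6.85 to 7.52 in the controls. Jun, its partner, read 8.69, 7.30 and 11.52, with control arrays 1 and 3 at 10.93 and 10.95 and the other controls at 7.35 to 7.80. In both genes array 3 was above all controls, array 1 next and array 2 the lowest. For Fos array 2 lay within the control range. For Jun array 1 lay between the 2 sets of control arrays, and array 2 just below the lowest control.

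Outside these lists the largest rises belonged to single genes. Anp32a, a nuclear phosphoprotein and phosphatase inhibitor, read 7.23 to 7.96 in control arrays and 9.68, 9.32 and 10.11 after benzyl alcohol at its most changed probeset (2.14 ± 0.23, adjusted p = 1.39e-04, and 2.02 against control arrays 2, 4 and 5). The other 2 probesets of Anp32a differed by 0.04 and 0.02, so the rise was seen in only 1 of 3. Tnnt2, cardiac troponin T, rose by 2.05 from low signals (3.49 to 4.70) to 6.84, 5.29 and 6.60, and its second probeset by 1.32. The first of these was 1.72 against control arrays 2, 4 and 5. Nppb, the gene of brain natriuretic peptide, read 8.88 to 9.52 in the controls and 10.63, 10.58 and 11.03 in the treated arrays (1.56 ± 0.14, adjusted p = 2.48e-05, and 1.43 against control arrays 2, 4 and 5). Nppb was 2.06 higher than after heat shock and 1.76 higher than after Lipofectamine, which themselves differed from the 5 controls by -0.51 and -0.20. Dusp14, a phosphatase of MAP kinases, rose by 1.41 (1.26 against control arrays 2, 4 and 5). Pmepa1, an antagonist of transforming growth factor signalling, rose by 1.43 (1.18 against control arrays 2, 4 and 5) at 1 of its 3 probesets, the others differing by 0.53 and 0.15 without passing.

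Falls were smaller than rises and often held at only some probesets of a gene. Klf15, a transcription factor of fasting metabolism, had the largest fall among the genes named by the rule (which had to pass in both fits with no overlap) that are read by 1 probeset: 7.05, 7.17 and 6.59 after benzyl alcohol against 7.87 to 8.56 (-1.30 ± 0.17, adjusted p = 7.35e-04; -1.48 against control arrays 2, 4 and 5). Ldb1, which bridges LIM domain transcription factors, went from 8.81 to 9.06 down to 8.01, 8.11 and 7.52 (-1.11 ± 0.13, adjusted p = 4.07e-04, and -1.15 against control arrays 2, 4 and 5). Odf2, a protein of centriole appendages, read evenly, with 9.18, 9.14 and 9.21 against 9.99 to 10.32 (-0.95 ± 0.09, adjusted p = 5.59e-05, and -0.87 against control arrays 2, 4 and 5). Ptms, the small acidic protein parathymosin, fell by 1.06 and 0.89 at 2 of 3 probesets, the first by 0.91 against control arrays 2, 4 and 5. Ehhadh, an enzyme of peroxisomal fatty acid oxidation, fell by 1.02, and the kinase Dapk3 by 1.2 at 1 of 2 probesets, and Dapk3 fell by 1.04 against control arrays 2, 4 and 5.

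Sox4, a transcription factor with the largest fall among the genes named by the rule (-1.61 ± 0.26, adjusted p = 0.0055, and -1.18 against control arrays 2, 4 and 5), fell at 1 of 6 probesets. That probeset read 7.14, 7.27 and 6.99 after benzyl alcohol and 8.19 to 9.72 in the controls, whereas the brightest probeset of Sox4 differed by -0.15 and the other 4 by -0.13 to 0.22. Dnm2, the endocytic GTPase dynamin 2, fell by 1.26 and 0.66 at 2 of 7 probesets, and its brightest probeset differed by -0.19. Mmp14, a membrane-bound metalloproteinase, fell by 1.17 at 1 of 2 probesets, the brighter one differing by -0.43 (adjusted p = 0.064). Atp13a2 and Atp6v0a1, a transporter and a proton pump subunit of lysosomes, fell by 0.94 and 1.09 at 1 probeset each. Cyb5r3, a cytochrome b5 reductase, also fell at 1 probeset, by 0.93. Zyg11b, Nsun4 and Tulp3 complete the 15. For Cyb5r3, Atp6v0a1, Zyg11b, Nsun4 and Tulp3, the call at the probeset named by the rule ended without benzyl alcohol array 3. The adjusted p was then 0.084, 0.16, 0.15, 0.095 and 0.15. Nsun4 fell at its brightest probeset as well, by 0.81 (limma adjusted p = 0.0068), and by 0.62 there against control arrays 2, 4 and 5. Other arrays mattered too: the call of Tulp3 ended without any of 7 arrays, that of Zyg11b without any of 4 and that of Atp6v0a1 without any of 3. The falls against control arrays 2, 4 and 5 of Dnm2, Mmp14, Atp13a2, Atp6v0a1 and Cyb5r3 were -1.2, -1.29, -1.01, -1.05 and -0.91, and those of Zyg11b, Nsun4 and Tulp3 were -0.75, -0.78 and -0.82. No gene had called probesets in both directions.

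**Figure D3:**
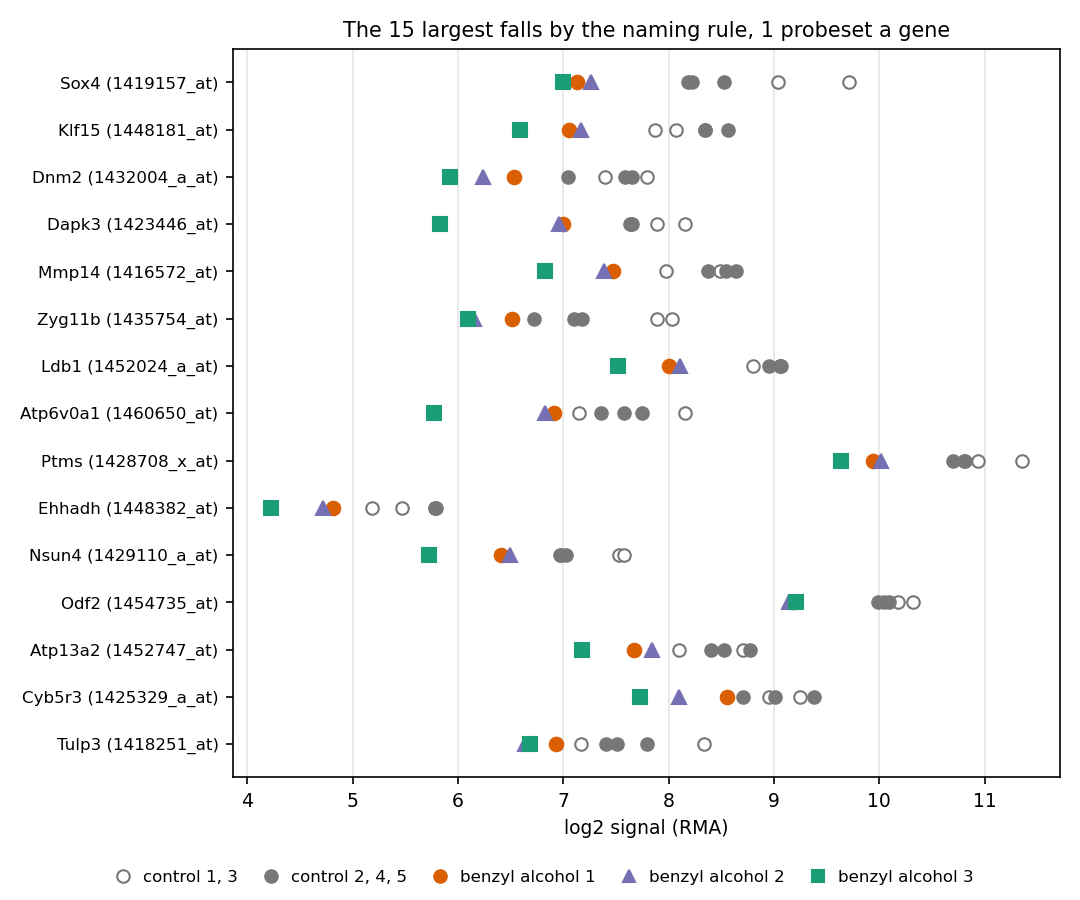
Log2 RMA signals (x axis) of the 15 genes with the largest falls under the same conditions, each at its most changed probeset (y axis), drawn as in the plot of the rises. All 3 benzyl alcohol arrays lie left of the 5 control arrays, and array 3 is often the lowest, as in Dapk3 (5.83 against 7.0 and 6.96).

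The other lists moved little, and for some of them the control arrays decided the sign. ATF4 targets, the genes of the integrated stress response, had 1 of 25 called, where 0.726% of all genes rose and 0.694% fell. Phgdh, the first enzyme of serine synthesis, fell by 0.68, and by 0.46 against control arrays 2, 4 and 5, and its call ended without benzyl alcohol array 1 (adjusted p = 0.0744) or array 3 (adjusted p = 0.115). The median of the list was -0.57 against all 5 controls, 0.07 against control arrays 2, 4 and 5, and -1.62 against control arrays 1 and 3. Ddit3, the stress factor CHOP, read 8.50, 8.26 and 8.64 after benzyl alcohol, 12.28 and 12.19 in control arrays 1 and 3, and 8.27, 8.43 and 8.13 in control arrays 2, 4 and 5. Chac1, a glutathione-degrading enzyme of the same response, had control arrays 1 and 3 higher by 3.89 than the others. Treated cells thus lay with control arrays 2, 4 and 5 in both genes.

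The unfolded protein response, 24 genes of the endoplasmic reticulum, had 0 calls and medians of -0.32 against all controls, 0.11 against arrays 2, 4 and 5 and -0.96 against arrays 1 and 3. NRF2 targets, the oxidative stress genes, had 0 of 21 called against all controls but 4 rises against control arrays 2, 4 and 5, where 1.29% of all genes rose and 1.36% fell. Hmox1, heme oxygenase, was among these 4, with 10.22, 9.31 and 10.21 after benzyl alcohol against 8.40, 8.78 and 8.53 (1.34, adjusted p = 0.001), while control arrays 1 and 3 stood at 12.29 and 12.39. Of 22 p53 targets 0 were called against all controls and 3 rose against arrays 2, 4 and 5 (the same 1.29% of all genes), among them Cdkn1a, the p21 cell cycle inhibitor, by 1.86 (adjusted p = 1.75e-04). DNA replication (41 genes) and mitosis (39 genes) had 0 calls; their medians were 0.21 and 0.07 against all controls, -0.03 and -0.19 against arrays 2, 4 and 5, and 0.59 and 0.39 against arrays 1 and 3.

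**Figure D4:**
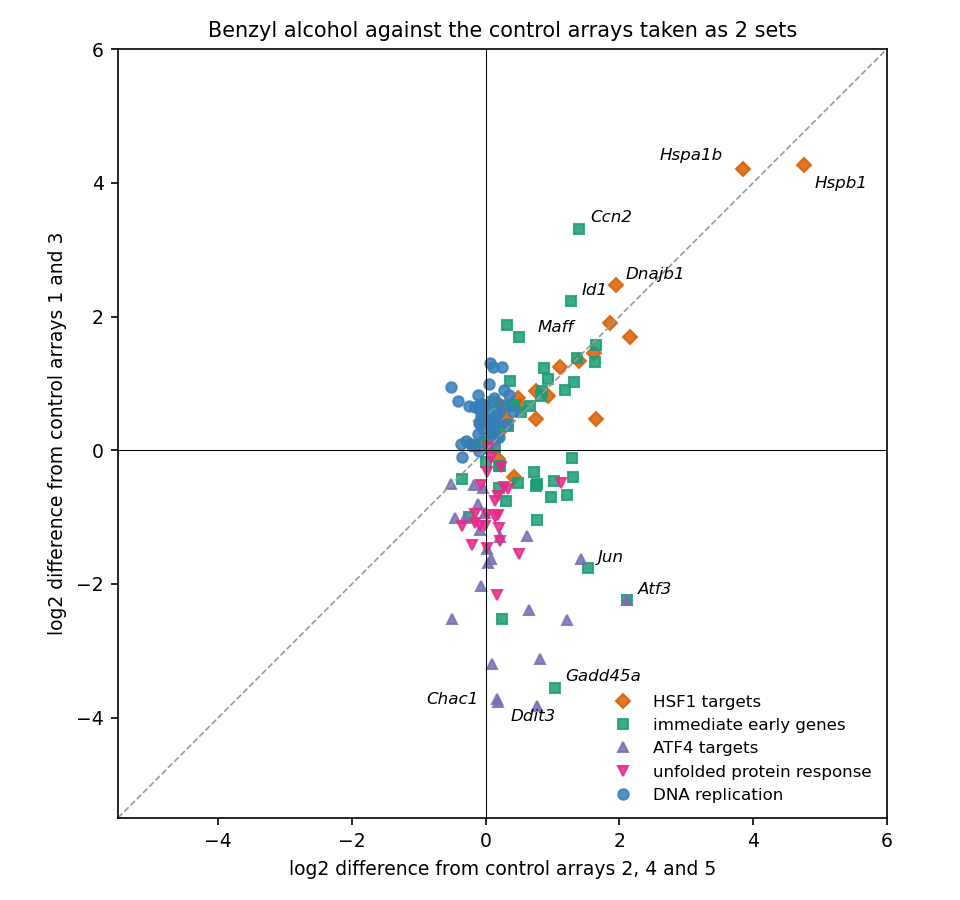
Log2 difference of the 3 benzyl alcohol arrays from control arrays 2, 4 and 5 (x axis) and from control arrays 1 and 3 (y axis) for the genes of 5 lists, 1 point per gene; both axes use the same treated arrays, and the dashed line marks equal values. Hspb1 (4.76 and 4.27) and Maff (1.65 and 1.58) lie near the line, whereas Ddit3 (0.19 and -3.77) and Atf3 (2.12 and -2.24) do not.

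Genes of membranes and lipids were listed apart. For the counts against all 5 controls, 0.726% of all genes rose and 0.694% fell. Sterol synthesis had 0 of 19 called, with a median of -0.16. Of 30 genes of fatty acid and membrane lipid synthesis 1 was called, a fall of Srebf1, the regulator of lipogenesis, by 0.36 (adjusted p = 0.044). That call ended when any of 12 of the 14 arrays was left out. Srebf1 did not pass against control arrays 2, 4 and 5 (-0.30, adjusted p = 0.108). In that fit, where 1.29% of all genes rose and 1.36% fell, the list had 2 rises, Chka (choline kinase, 0.86) and Lpin1 (a phosphatidate phosphatase, 0.61), and 5 falls, Elovl6 (-0.76), Fasn (-0.65), Acaca (-0.54), Ugcg (-0.52) and Gpam (-0.45), enzymes that build or elongate fatty acids, glucosylceramide and glycerolipids. In sterol efflux, 1 of 6 rose: Abca1, the cholesterol exporter, with 8.59, 8.33 and 7.92 against 7.69 to 7.95, so that array 3 overlapped the controls (adjusted p = 0.0485), and the call ended without any of 12 arrays. Abca1 did not pass against control arrays 2, 4 and 5 (0.50, adjusted p = 0.0684). Its dimmer probesets differed from the 5 controls by 0.05 and -0.10 without passing. In the list of rafts, caveolae and membrane repair, 1 of 18 rose, S100a10, the partner of annexin A2, by 0.52 (10.82, 10.80 and 10.88 against 10.16 to 10.40, adjusted p = 0.0071). Cav1, caveolin 1, differed by 0.56 (adjusted p = 0.16) and by 0.25 against control arrays 2, 4 and 5.

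Genes that handle alcohols and aldehydes (18 measured) and AHR targets (9 measured), which respond to many aromatic compounds, had 0 calls and medians of -0.04 and 0.02. Beside the counts of the lists that follow, 0.726% of all genes rose and 0.694% fell against the 5 control arrays. In the metal response 1 of 4 rose, the zinc exporter Slc30a1, by 0.55, a call that ended without any of the 3 benzyl alcohol arrays or control array 4 or 5 (adjusted p of 0.0505 to 0.132). Among 22 apoptosis regulators 2 rose: Bcl2l11, the pro-apoptotic BIM, by 0.97 (8.48, 8.36 and 9.10 against 7.33 to 8.22) and Mcl1, which protects from apoptosis, by 0.53 (adjusted p = 0.0482). Mcl1 did not pass against control arrays 2, 4 and 5 (0.43, adjusted p = 0.0726), where Bcl2l11 rose by 0.90. The call of Bcl2l11 ended without benzyl alcohol array 3 (adjusted p = 0.15) and that of Mcl1 without any of 11 arrays. Of 28 splicing genes 2 fell, the kinase Clk2 by 0.62 and Rsrp1, a serine and arginine rich protein, by 0.83. Without benzyl alcohol array 3 their adjusted p was 0.16 and 0.055, and Clk2 was at 0.0506 without control array 1. Of 23 genes of glycolysis and hypoxia 1 fell, hexokinase 2 (Hk2), by 0.68 (9.32, 8.91 and 9.20 against 9.70 to 9.94, adjusted p = 0.0044). The changes of S100a10, Slc30a1, Clk2, Rsrp1 and Hk2 against control arrays 2, 4 and 5 were 0.55, 0.60, -0.54, -0.89 and -0.73, each of which passed there too.

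The actin genes of SRF and MRTF (25), NF-kB targets (17), the interferon response (17), ribosome assembly (48), the proteasome (31) and oxidative phosphorylation (30) had 0 calls in either direction, with medians from -0.06 to 0.07. In the same fit 0.726% of all genes rose and 0.694% fell. Of 8 macrophage markers 1 rose, Cd68, a lysosomal membrane protein, from 5.16 to 5.59 up to 6.37, 5.78 and 6.47 (0.90 ± 0.14, adjusted p = 0.0037, and 0.96 against control arrays 2, 4 and 5). The other 7 markers were not called, their list had 0 members above a log2 signal of 10, and its summed log2 signal ran from 49.4 to 50.7 after benzyl alcohol against 47.5 to 49.3 in control arrays. The part of other cell types in the rise of Cd68 was not tested.

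**Figure D5:**
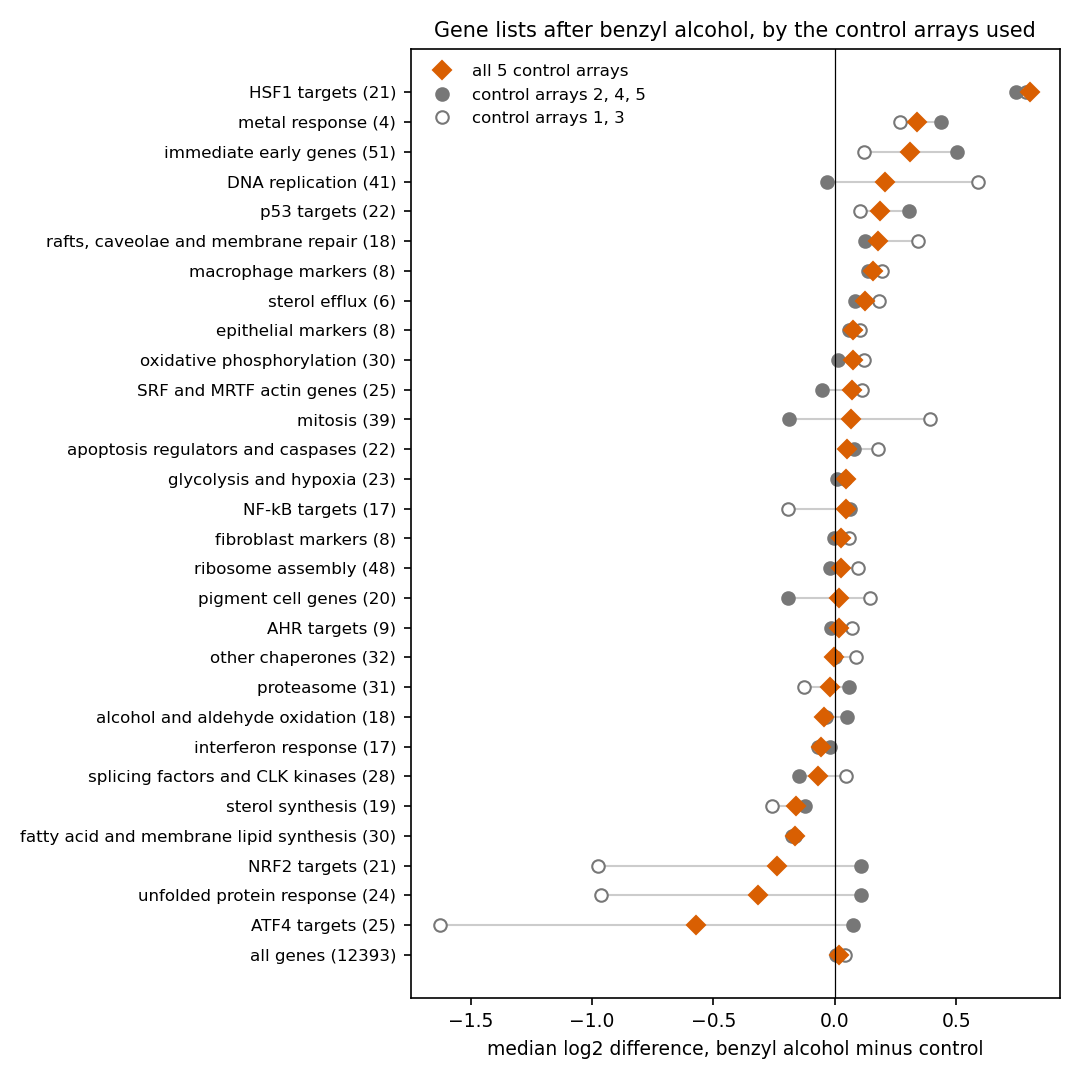
Median log2 difference between benzyl alcohol and control (x axis) for 29 gene lists and all genes (y axis, number of measured genes in brackets), against all 5 control arrays (diamonds), control arrays 2, 4 and 5 (filled circles) and control arrays 1 and 3 (open circles). HSF1 targets stay between 0.75 and 0.81 in each set, while ATF4 targets run from -1.62 to 0.07.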

How the data were processed

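RNA of B16-F10 cells was hybridized to Affymetrix mouse arrays. Scanning used GCOS 1.2, the authors summarized probesets by RMA, and the deposited values are log2 signals; the version of RMA and which arrays were normalized together are not given in the sources used here. Of 22690 probesets, 64 Affymetrix controls were left out and 22626 were tested without a filter on signal. Annotation gave 20380 probesets 1 symbol, 691 several and 1555 none, and 20351 were matched to RefSeq by Entrez identifier with 0 updates. In lists a gene is its brightest probeset over 14 arrays (12393 genes).

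All 14 arrays were fitted in 4 groups with limma 3.58.1 in R 4.3.3 (5.60 prior degrees of freedom, prior variance 0.0258), with Benjamini-Hochberg adjustment over all probesets and a threshold of 0.05. The alternative fits are given in the closing section. Genes to be named had 1 symbol, passed against all 5 controls and against controls 2, 4 and 5, and overlapped no control array. The 15 strongest in each direction by log2 change were taken, with up to 5 called members of each of 29 gene lists, and 11 heat shock genes with all their probesets. Other list members named were chosen after their values were seen. The comparison, lists and rule were chosen with earlier results of these data known. The fit was also tested on simulated log2 values with known changes. RMA leaves no detection calls, so dim signals cannot be told from background, and the number of arrays limits precision. Replicate numbers were not taken to pair arrays.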

Additional observations from a re-analysis of the deposited data

Results flagged for a closer look

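In 2 of the 64 named probesets 1 of the 5 control arrays stood far from the others, by the gap to its neighbour as a share of the whole range; chance flags about 1 in 20 groups. Control array 4 read 7.95 for Abca1, with the other controls between 7.69 and 7.73, and it lay inside the range of the benzyl alcohol arrays (7.92 to 8.59). Control array 3 read 4.30 for the most changed probeset of Hspa1b, with the other controls between 5.13 and 5.44 and the benzyl alcohol arrays between 8.33 and 11.20.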

How the results depend on the processing

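The number of changed probesets moved with the arrays used more than with normalization. For benzyl alcohol against control, 314 became 81 with only these 2 groups fitted, 686 with control arrays 2, 4 and 5 only, 2826 with control arrays 1 and 3 only, 953 with array weights (whose estimation stopped before full convergence) and 207 with a fold of at least 1.5, while leaving out single arrays gave 131 to 441, the lowest without benzyl alcohol array 3 and 190 without array 1. Against heat shock, 1633 became 3336 with 2 groups, 4293 with array weights, 827 at an unadjusted p of 0.001, 1087 with the fold, and 227 to 2305 with single arrays left out. Against Lipofectamine, 2699 became 8829 with array weights, 1378 at that p, 1570 with the fold, and 1280 to 3187 with single arrays left out. The HSF1 target count of 12 was 8 with only 2 groups fitted, the lowest of all fits, and ranged from 9 to 13 without single arrays. The immediate early count of 10 was 4 with 2 groups and 16 with array weights, and ranged from 5 to 12 without single arrays; both counts across fits were chosen after seeing the data. With the replicate number as a block the 3 counts were 286, 1855 and 2595; correlations of deviations between same-numbered arrays of benzyl alcohol and control were -0.04, 0.44 and 0.21, of which the last 2 were the highest for their benzyl alcohol array, while benzyl alcohol array 1 correlated best with control array 5 (0.33), so the numbers were not taken as pairs. The block ended 6 of the calls of named probesets. The cause of these shifts was not tested. No direction of a named probeset that passed was reversed; of the 53 that passed, 23 lost the call with only 2 groups fitted and 16 lost it with at least 1 array left out. Of 29 list medians 13 changed sign with control arrays 2, 4 and 5 only.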
